A study of Homo sapiens with 6 samples.

Results

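The genes of the telomerase proteins and of shelterin were examined in MOLT-4 cells, a line of human T-cell acute lymphoblastic leukemia, grown in RPMI medium with 10% serum. The 10 genes were chosen by name: TERT, DKC1, NOP10, NHP2 and GAR1 for telomerase, and TERF1, TERF2, POT1, ACD and TINF2 for shelterin. All 10 were found, each on 1 of the 60640 gene identifiers of the tables, and all 10 passed the filter that left 12652 genes for testing, a mean of at least 1 over the 6 libraries in FPKM (fragments scaled to transcript length and to the mapped fragments of the library). PolyA RNA was sequenced in 3 wild type libraries, which the labels call the control of the CRISPR knockout, and in 3 libraries labelled IK-KO, from MOLT-4 cells whose IKZF1 gene, the gene of the transcription factor IKAROS, was targeted with CRISPR-Cas. The study states that the edited cells and their control were purchased and shows a pair of knockout clones, but the labels do not say which clone was sequenced or whether replicates were separate cultures. Differences between the lines other than the edit thus cannot be told apart from it, and a p-value covers the spread among these 6 libraries alone, which may be technical. In bulk RNA, fewer expressing cells and less RNA per cell cannot be told apart.

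Telomerase copies an RNA template onto chromosome ends. TERT is its reverse transcriptase, and the RNA template is TERC. DKC1 (dyskerin), NOP10, NHP2 and GAR1 are the H/ACA proteins of the particle that holds TERC. They also serve the many small nucleolar RNAs that guide pseudouridylation. Shelterin coats the telomeric repeats: TERF1 and TERF2 bind the duplex repeats, POT1 binds the single strand, ACD (TPP1) holds POT1 and recruits telomerase, and TINF2 (TIN2) joins these subunits. Most normal somatic cells hold TERT silent, whereas most leukemia lines express it, so TERT is usually the limiting part of the enzyme.

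Relative depth, estimated from the confidence bounds of genes with a single transcript, lay between 0.902 and 1.09 of the mean, and the groups overlapped. RNA of IKZF1 itself was higher in every library labelled IK-KO (207 to 260 FPKM) than in any wild type library (105 to 134 FPKM). The study reports that the knockout was checked by PCR and western blot, and shows a western blot of IKAROS in the clones. Gene-level RNA does not measure the protein, so it does not test the label, and the group is named by its label throughout. The 9 T-lineage markers summed to 1309 to 1375 FPKM per wild type library and to 1529 to 1726 FPKM per library labelled IK-KO. Of these 9, 7 were called at a limma adjusted p under 0.05 (77.8%, against 19.9% of all tested genes), 4 higher and 3 lower. Among them CD2 fell from a mean of 61.5 to 5.14 FPKM, and CD247 rose from 66.0 to 245.5 FPKM. Both were picked out after their values were seen. The 12 markers of B, myeloid, erythroid, epithelial and fibroblast cells summed to 1.51 to 2.57 and to 0.884 to 1.26 FPKM, with EPCAM, COL1A2 and HBB at 0 throughout. The part of these shifts in the results was not tested.

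TERT was the only member called, at a limma adjusted p under 0.05, and it fell in the libraries labelled IK-KO, where its RNA was at the limit of detection. TERT entered the test only through its wild type level, and with low genes kept in the fit its call was lost (limma adjusted p 0.0743), which left 0 of the 10 called. Among all tested genes 19.9% were called, 9.75% lower and 10.1% higher, so 1 called gene of 10, and 0 higher, is no more than the background share. The groups overlapped for each of the 4 H/ACA genes, and none of the 4 was called. None of the 5 shelterin members was called either, whereas TERF2IP, a shelterin subunit outside the 10, was called higher. TINF2 was listed higher and ACD lower in every library labelled IK-KO than in any wild type library, and both missed the threshold. For 3 of the 10 genes (TERT, ACD and TINF2) the groups were apart without overlap, against 39.0% of all tested genes. The median log2 change of the 10 was −0.07, against 0.02 over all tested genes, and the median size of change was 0.15 against 0.18.

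The 250 bases before the start of TERT are shown first, since it was the only member called in the main fit. Those of NOP10 and TERF2IP follow, NOP10 as a member that also holds an E-box and TERF2IP as the shelterin gene that rose. Capitals mark the letters CACGTG (an E-box, the site read by MYC and MAX), GGGCGG (a GC box, read by SP1) and GGGAA (the IKAROS core), each searched on both strands, so CCGCCC and TTCCC are capitals too. The sequences are RefSeq's on GRCh38.p14, in the direction of the gene. TERT lies at chr5:1295069-1295318 (minus strand), NOP10 at chr15:34343137-34343386 (minus strand) and TERF2IP at chr16:75647523-75647772 (plus strand).
TERT: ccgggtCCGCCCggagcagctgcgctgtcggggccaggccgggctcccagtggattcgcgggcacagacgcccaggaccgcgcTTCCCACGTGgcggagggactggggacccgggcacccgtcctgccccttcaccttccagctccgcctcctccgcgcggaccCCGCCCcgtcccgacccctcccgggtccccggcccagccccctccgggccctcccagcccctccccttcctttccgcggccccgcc
NOP10: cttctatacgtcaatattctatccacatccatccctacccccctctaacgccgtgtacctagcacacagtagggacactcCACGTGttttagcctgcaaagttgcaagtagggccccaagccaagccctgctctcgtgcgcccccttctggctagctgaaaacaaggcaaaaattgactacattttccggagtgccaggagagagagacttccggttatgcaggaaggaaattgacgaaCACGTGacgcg
TERF2IP: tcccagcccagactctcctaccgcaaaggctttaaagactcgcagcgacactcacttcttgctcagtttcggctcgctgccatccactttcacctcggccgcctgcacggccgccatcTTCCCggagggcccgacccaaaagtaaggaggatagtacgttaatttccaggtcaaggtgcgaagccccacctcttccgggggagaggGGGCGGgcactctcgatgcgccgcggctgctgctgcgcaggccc

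The TERT window held 1 E-box, 163 bases before the start, which shares a base with a match to the IKAROS core on the other strand that begins 167 bases before the start. It held 2 matches to the GC box, 244 and 86 bases before the start, and 78.8% of its bases were G or C. NOP10 held 2 E-boxes, 170 and 11 bases before its start, and no match to the other motifs. Of the 35116 windows of this length in the RefSeq table, 6.34% held an E-box, 42.6% a GC box and 59.0% the IKAROS core, whose few letters occur often. Windows of 8 of the 10 members were found, and TERF1 and TERF2 are named only. An E-box occurred in TERT and NOP10 alone among the 8. The IKAROS core occurred in TERT, NHP2 and TINF2 among them. These matches are descriptions of the letters, since the tables hold no measure of binding.

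TERT (ENSG00000164362.21) lies on chromosome 5 at 1253147 to 1295068 (GRCh38, minus strand), near the end of the short arm. Wild type replicates 1 to 3 held 1.28, 3.79 and 1.07 FPKM of it, and IK-KO replicates 1 to 3 held 0, 0.0413 and 0.0194 FPKM. Every wild type library was thus above every library labelled IK-KO, and wild type replicate 2 stood well above the other wild type libraries. Wild type averaged 2.05 ± 1.51 FPKM (SD, n = 3). On the log2(FPKM + 1) scale, which understates changes of low genes, TERT fell by 1.47 (SE 0.33, 95% interval −2.25 to −0.69, limma adjusted p 0.0210). With a pseudocount of 0.1 the log2 change was −3.95, so the size of the fall depends on the pseudocount, and no fold is given.

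**Figure D1:**
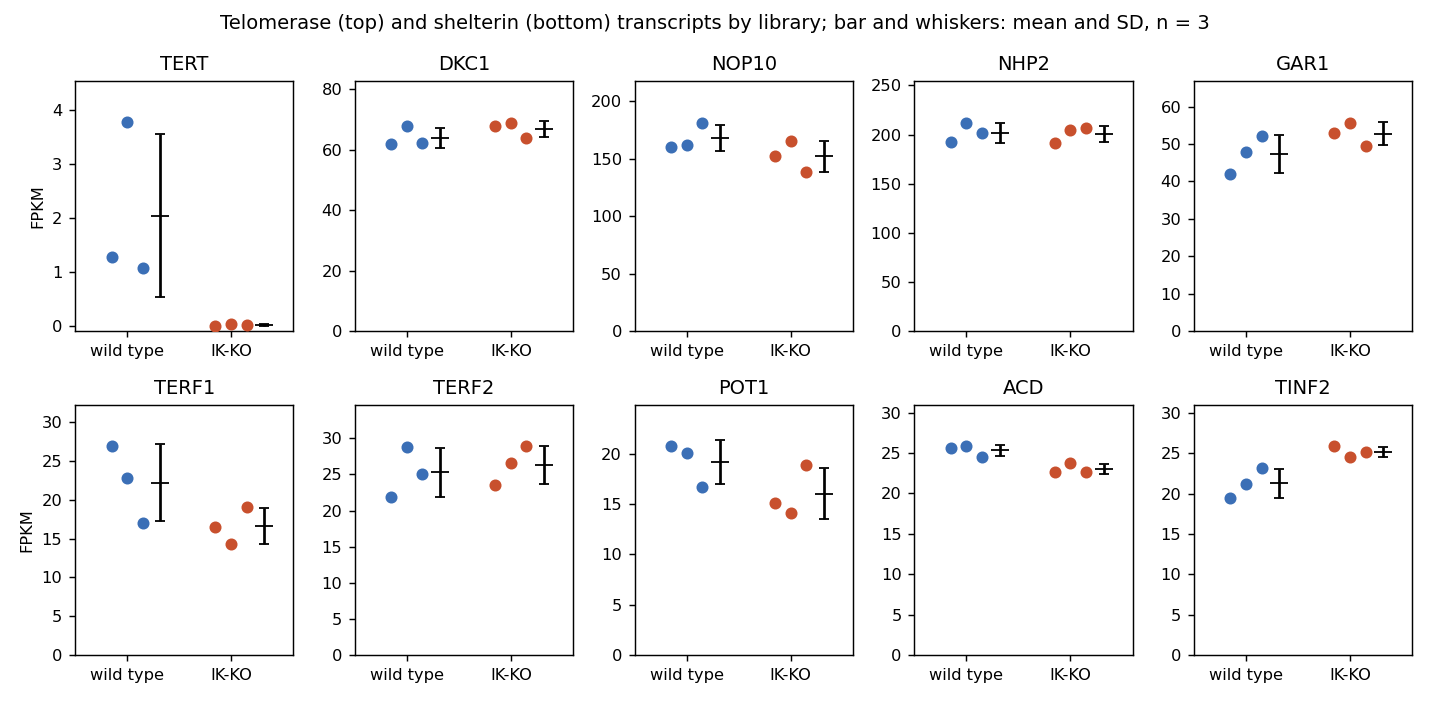
FPKM of the 10 genes in 3 wild type (blue) and 3 IK-KO (red) libraries, replicates 1 to 3 from left to right, with mean and SD. Vertical axes are each on their own scale and start at 0, or just below 0 for TERT. TERT is near 0 in the 3 IK-KO libraries, and of the other 9 genes only ACD and TINF2 have groups that do not overlap.

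The confidence bounds that the authors deposited with TERT were wide. They ran from 0 to 2.56, 1.38 to 6.19 and 0 to 2.26 FPKM in wild type replicates 1 to 3. Upper bounds under the IK-KO label were 0, 0.341 and 0.300 FPKM, and only wild type replicate 2 had a lower bound above all of these. In wild type the width of the bounds is that of a count of 3.28 to 9.93 fragments, whereas for the other 9 members it is that of 107 to 1306 fragments. Spread over the 4039 bases of the canonical transcript, the listed wild type values would need 70.2 to 282 fragments, so the bounds and the listed values give unlike depths. In the other 9 members too, the width gave fewer fragments than the listed values would need. It gave 132.5 against 1590 for TERF2 in wild type replicate 2, and 1093 against 2700 for DKC1 in wild type replicate 1. Bounds also widen where fragments must be divided among transcripts of a gene, and transcript-level values were not used here. By the 4039 bases of TERT, 3 fragments would be worth between 0.0389 and 0.0469 FPKM. Each library labelled IK-KO lay at or under its own floor of 3 fragments to within rounding (0.0413 against 0.0413 FPKM in replicate 2). An antisense gene that overlaps TERT, AC114291.2, was listed at 0 in every library.

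**Figure D2:**
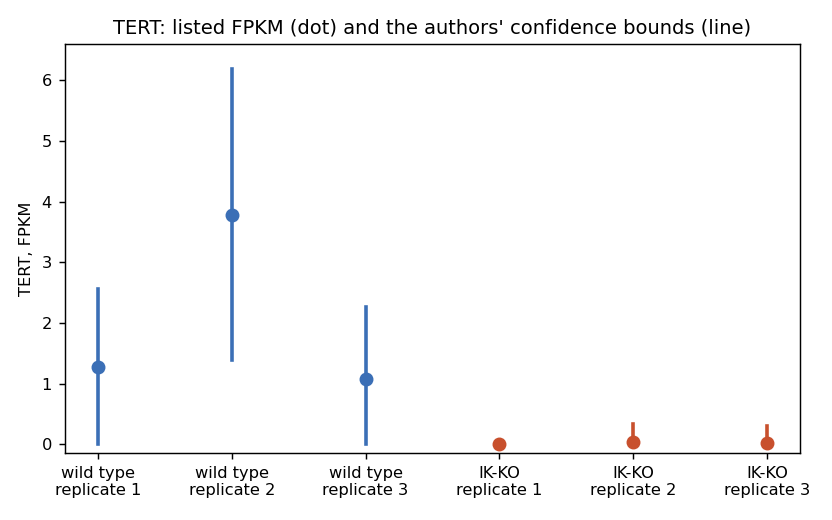
TERT in each of the 6 libraries, with the listed FPKM as a dot and the confidence bounds deposited by the authors as a line (vertical axis in FPKM). The bounds of wild type replicates 1 and 3 reach 0, and that of wild type replicate 2 starts at 1.38 FPKM, above the upper bounds of all 3 IK-KO libraries.

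TERT passed the filter through wild type alone. Its mean over the 6 libraries was 1.03 FPKM, just past the limit of 1, and it would be 0.482 FPKM without wild type replicate 2 and 0.984 FPKM without wild type replicate 1. The same genes were tested in each such fit, so TERT was kept in although it would miss the filter without wild type replicate 2. Its change there was −1.09 (limma adjusted p 0.0184), which lends the call no support. The call was lost without IK-KO replicate 1, 2 or 3 in turn (limma adjusted p 0.0606, 0.0609 and 0.0595), at changes from −1.49 to −1.46, and without the filter on low values (adjusted p 0.0743). Over all alternatives the adjusted p lay between 0.0103 and 0.0743.

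Genes around TERT were called in both directions. Of the 20 nearest tested genes on chromosome 5, 10 on either side, 7 were called, 4 lower and 3 higher, against the 19.9% called among all tested genes, and their median log2 change was −0.09. The nearest tested gene before TERT on the chromosome, SLC12A7, a potassium-chloride cotransporter, rose from 18.3 ± 0.538 to 39.5 ± 3.24 FPKM (SD, n = 3). The nearest after it, CLPTM1L, had means of 137 and 122 FPKM and was not called (log2 change −0.17, SE 0.08, limma adjusted p 0.224). Among the 4 lower genes were the homeobox genes IRX4 and IRX1, with log2 changes of −2.09 and −0.90. Their midpoints lie 587 and 2304 kilobases from the start of TERT, so nearest here is by order and not by distance. With the median of the neighbours removed in each library, the change of TERT was −1.37 (limma adjusted p 0.0310). These neighbours were named after their values were seen.

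**Figure D3:**
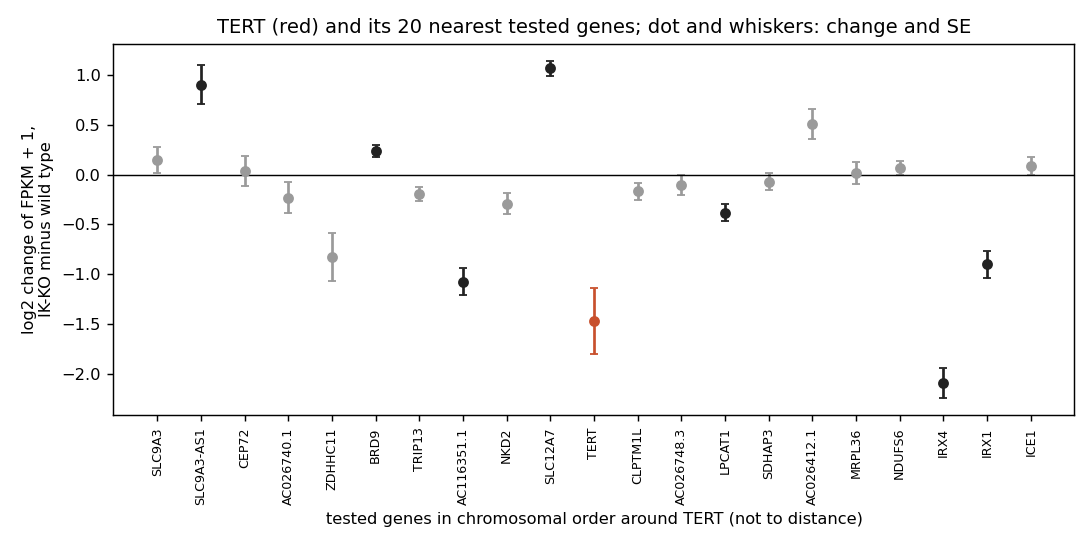
Log2 change of FPKM + 1 (vertical axis, IK-KO minus wild type, with SE) of TERT, in red, and its 20 nearest tested genes in chromosomal order (horizontal axis, not to distance). Black marks an adjusted p under 0.05 and grey the rest; called genes lie on both sides of 0.

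The RNA template TERC (chromosome 3) was listed at no more than 1.48e-05 FPKM in any library, with upper bounds from 0.320 to 0.415 FPKM. The mature TERC carries no long polyA tail, so polyA libraries are not a measure of it. The 3 tested genes whose log2(FPKM + 1) ran most like that of TERT over the 6 libraries were VAPB (Pearson r 0.996), SCN3A (r 0.993) and CBR4 (r 0.992). They share the higher value of wild type replicate 2 and are the highest of all tested genes, so they only describe these libraries.

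Of the H/ACA proteins, DKC1 is the pseudouridine synthase and the catalytic member. DKC1 (chromosome X, 154762742 to 154777689) stood at 61.9, 67.8 and 62.3 FPKM among wild type libraries, against 67.8, 68.9 and 63.9 FPKM with the IK-KO label, with overlapping groups. Its log2 change was 0.06 (95% interval −0.08 to 0.20, limma adjusted p 0.502). NHP2 (chromosome 5, 178149460 to 178153967), an RNA-binding protein of the complex, was at 192, 212 and 202 FPKM and at 191, 205 and 206 FPKM, the closest match between groups of all 10 genes. Its log2 change was −0.01 (95% interval −0.14 to 0.12, limma adjusted p 0.934). Its locus overlaps that of RMND5B on the other strand, at a mean of 7.99 FPKM.

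NOP10 (chromosome 15, 34341713 to 34343177), the small protein that links dyskerin to NHP2, had wild type values of 161, 162 and 181 FPKM, while libraries labelled IK-KO had 152, 166 and 139 FPKM. These groups overlap through IK-KO replicate 2, and the log2 change was −0.14 (95% interval −0.33 to 0.04, limma adjusted p 0.254). GAR1 (chromosome 4, 109815510 to 109824740), which binds dyskerin and is the last to join the mature particle, was at 42.1, 47.9 and 52.3 FPKM and at 53.0, 55.7 and 49.5 FPKM. Its log2 change was 0.15 (95% interval −0.05 to 0.36, limma adjusted p 0.272). The 4 H/ACA genes summed to between 457 and 498 FPKM per wild type library and to between 458 and 495 FPKM per library labelled IK-KO, so the sums overlap almost fully.

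FPKM is a level per length of transcript, so the genes can be ordered by it. In both groups the order began NHP2, NOP10, DKC1 and GAR1, with means from 202 down to 47.4 FPKM in wild type and from 201 down to 52.7 FPKM in the libraries labelled IK-KO. No 2 neighbours among these 4 overlapped in either group. The 5 shelterin genes followed, with wild type means between 19.2 (POT1) and 25.3 FPKM (ACD), where every pair of neighbours overlapped, and with TERT last. Under the IK-KO label the shelterin order was TERF2, TINF2, ACD, TERF1 and POT1, and of these neighbours TERF2 with TINF2 and TERF1 with POT1 overlapped. NHP2 and NOP10 stood above 95.6% or more of all tested genes in each group's mean percentile, the shelterin genes between the 58.6 and 72.1 percentiles, and TERT at the 11.6 percentile for wild type and 0.826 for those labelled IK-KO.

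The shelterin genes were then compared. TINF2 (chromosome 14, 24239643 to 24242674) measured 19.5, 21.1 and 23.2 FPKM across wild type replicates and 25.8, 24.5 and 25.1 FPKM across those labelled IK-KO, a mean of 21.3 ± 1.83 against 25.2 ± 0.651 FPKM (SD, n = 3). The groups do not overlap, but the log2 change of 0.24 (SE 0.08, 95% interval 0.06 to 0.42) missed the threshold (limma adjusted p 0.0719). Without wild type replicate 3, the highest wild type library, it was called (log2 change 0.30, limma adjusted p 0.0363). ACD (chromosome 16, 67657512 to 67660815) was at 25.7, 25.8 and 24.5 FPKM and at 22.6, 23.8 and 22.6 FPKM, also without overlap. Its log2 change was −0.13 (SE 0.06, 95% interval −0.27 to 0.005, limma adjusted p 0.162), and it was called in no alternative. The locus of ACD overlaps that of CARMIL2 on the other strand, at a mean of 39.1 FPKM, and whether strand was used in the quantification is not given in the sources used here, so reads of such pairs may be mixed.

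TINF2 was below ACD in each wild type library and above it in each library labelled IK-KO, with ratios of 0.760, 0.819 and 0.945 against 1.14, 1.03 and 1.11. A ratio within a library does not depend on its scaling. Since neither gene's groups overlapped and the genes lay in opposite directions, these ratios had to separate, and they are given as a description with no test. Of the 10 ratios examined, NOP10 to GAR1 was the only other one whose groups did not overlap, at 3.82, 3.39 and 3.47 in wild type and 2.88, 2.97 and 2.80 under the IK-KO label. The exact permutation test (two-sided) gave p = 0.1 for it, the smallest that 3 against 3 libraries allow, and 0.333 after Benjamini-Hochberg adjustment over the 10, so it did not pass.

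TERF1 (TRF1; chromosome 8, 73008864 to 73048123) stood at 26.9, 22.8 and 17.0 FPKM among wild type libraries, against 16.6, 14.3 and 19.0 FPKM with the IK-KO label. It had the largest change after TERT, a log2 change of −0.38, with the widest spread of the shelterin genes (SE 0.17, 95% interval −0.78 to 0.02, limma adjusted p 0.169). POT1 (chromosome 7, 124822386 to 124929983) was at 20.7, 20.1 and 16.7 FPKM and at 15.1, 14.1 and 18.8 FPKM, a log2 change of −0.25 (SE 0.13, 95% interval −0.55 to 0.05, limma adjusted p 0.224). In both genes the groups overlapped in the same way: wild type replicate 3 was the lowest of its group and IK-KO replicate 3 the highest of its group. POT1 also overlaps POT1-AS1 on the other strand, at a mean of 1.11 FPKM, and the processed pseudogenes of TERF1 reached at most 0.202 FPKM. Without wild type replicate 3 the change of TERF1 was −0.55 (limma adjusted p 0.0527), and without IK-KO replicate 3 that of POT1 was −0.36 (limma adjusted p 0.0891).

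TERF2 (TRF2; chromosome 16, 69355567 to 69408571), the subunit that protects the chromosome end from being read as a break, had wild type values of 21.9, 28.8 and 25.1 FPKM, while libraries labelled IK-KO had 23.6, 26.6 and 28.9 FPKM. Its log2 change was 0.06 (95% interval −0.21 to 0.33, limma adjusted p 0.760). TERF2IP (RAP1; chromosome 16, 75647773 to 75761872), the shelterin subunit that rides on TERF2 and was not among the 10, measured 49.2, 49.3 and 48.3 FPKM across wild type replicates and 58.6, 60.3 and 56.6 FPKM across those labelled IK-KO. It rose by 0.25 on the log2 scale (SE 0.05, limma adjusted p 0.0128) and was called in all 14 alternatives. The 5 shelterin members summed to between 107 and 119 FPKM per wild type library and to between 103 and 114 FPKM per library labelled IK-KO, which overlap.

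**Figure D4:**
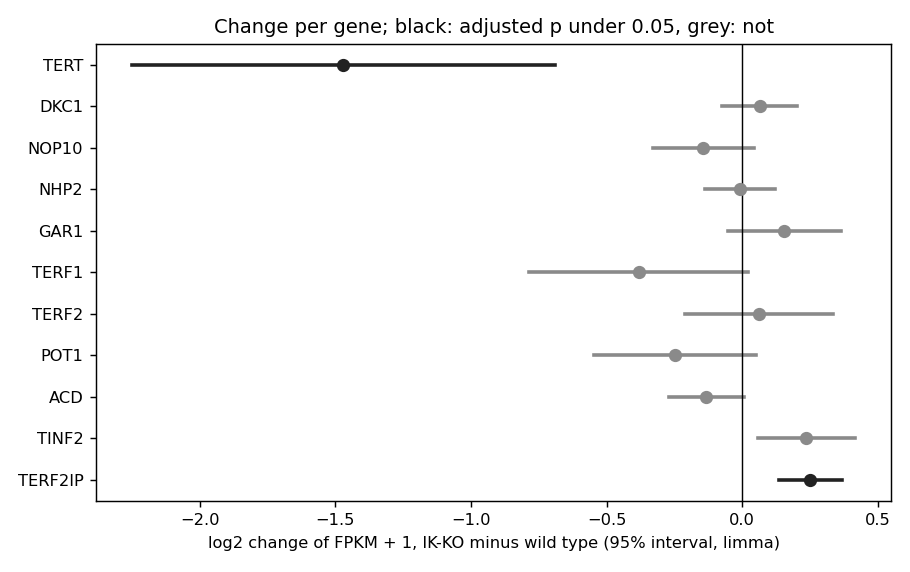
Log2 change of FPKM + 1 with its 95% interval (horizontal axis, IK-KO minus wild type, limma) for the 10 genes and TERF2IP, in black where the adjusted p is under 0.05. TERT at −1.47 and TERF2IP at 0.25 are called; the interval of TINF2 lies above 0 but its adjusted p does not pass.

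The wider telomere pathway was read from 5 lists of 71 genes, of which 69 were tested and 13 called (18.8%), 9 higher and 4 lower. That share is near the 19.9% of all tested genes. Genes named here beyond the called gene with the largest change in each list were chosen after their values were seen, and in 4 of the 5 lists a gene that was not called had a larger change. Of 14 genes of telomerase assembly and TERC processing, 13 were tested, and 1 was called: RUVBL1, an ATPase that helps assemble the enzyme, fell from 73.7 ± 2.10 to 63.5 ± 2.83 FPKM (SD, n = 3; limma adjusted p 0.0325), a call that 6 of the 14 alternatives did not give (adjusted p up to 0.102). The chaperones NAF1 and SHQ1, the TERC exonuclease PARN and the telomerase escort WRAP53 were among the 12 not called.

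Of 14 partners and modifiers of shelterin, all tested, 3 were higher and 0 lower. Called genes were thus 21.4% of this list, against 19.9% of all tested genes. MRE11, the nuclease of the complex that senses breaks and trims telomere ends, rose from 14.9 ± 0.292 to 20.1 ± 1.24 FPKM (SD, n = 3; log2 change 0.41, limma adjusted p 0.00738). The other two were TERF2IP and SIAH1, a ubiquitin ligase, with a log2 change of 0.40 (limma adjusted p 0.0242), which lost its call in 6 alternatives (adjusted p up to 0.0818). The tankyrases TNKS and TNKS2, which release TERF1 from telomeres, were not called.

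Of 17 genes of the CST complex and telomere replication, 16 were tested and 2 called (12.5%), against 19.9% of all tested genes. SMARCAL1, which remodels stalled forks, fell from 12.9 ± 0.223 to 10.5 ± 0.425 FPKM, and POLA2, a subunit of the polymerase that fills in the complementary strand, rose from 21.7 ± 0.656 to 26.3 ± 1.26 FPKM (SD, n = 3; limma adjusted p 0.0331 and 0.0273). They lost their calls in 7 and 6 alternatives (adjusted p up to 0.101 and 0.0863). The CST genes CTC1, STN1 and TEN1 and the helicase RTEL1 were not called.

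Of 12 genes of telomeric chromatin and of the alternative lengthening pathway, all tested, 4 were higher and 0 lower. Called genes were thus 33.3% of this list, against 19.9% of all tested genes, and whether the shares differ was not tested. CBX5, the heterochromatin protein HP1 alpha, rose from 46.9 ± 1.42 to 64.4 ± 1.94 FPKM (SD, n = 3; log2 change 0.45, limma adjusted p 0.00148). H3-3B, 1 of the 2 genes in the list that encode histone H3.3, rose by 0.42, and the other, H3-3A, had a log2 change of 0.03 (limma adjusted p 0.00110 and 0.621). CBX1 rose by 0.26, and TRIM28 by 0.20 at a limma adjusted p of 0.0466, a call that 11 of the 14 alternatives did not give (adjusted p up to 0.256). ATRX and DAXX, which deposit H3.3 at telomeres, were not called (limma adjusted p 0.806 and 0.0630).

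Of 14 factors known to act on the TERT promoter, all tested, 1 was higher and 2 lower (21.4% called, against 19.9% of all tested genes). The Wilms tumor factor gene WT1, a zinc finger factor, rose from 11.2 ± 0.896 to 25.9 ± 1.82 FPKM (SD, n = 3; log2 change 1.15, limma adjusted p 0.000239). ETS1 fell from 120 ± 9.50 to 86.1 ± 1.33 FPKM and ETS2 from 16.8 ± 1.77 to 11.5 ± 0.238 FPKM (SD, n = 3; limma adjusted p 0.00302 and 0.00790). MYC was at 183 ± 10.7 and 172 ± 2.63 FPKM (SD, n = 3) and was not called (limma adjusted p 0.317), nor were MAX, SP1, SP3, GABPA or E2F1. Whether any of these changes bears on TERT was not tested.

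**Figure D5:**
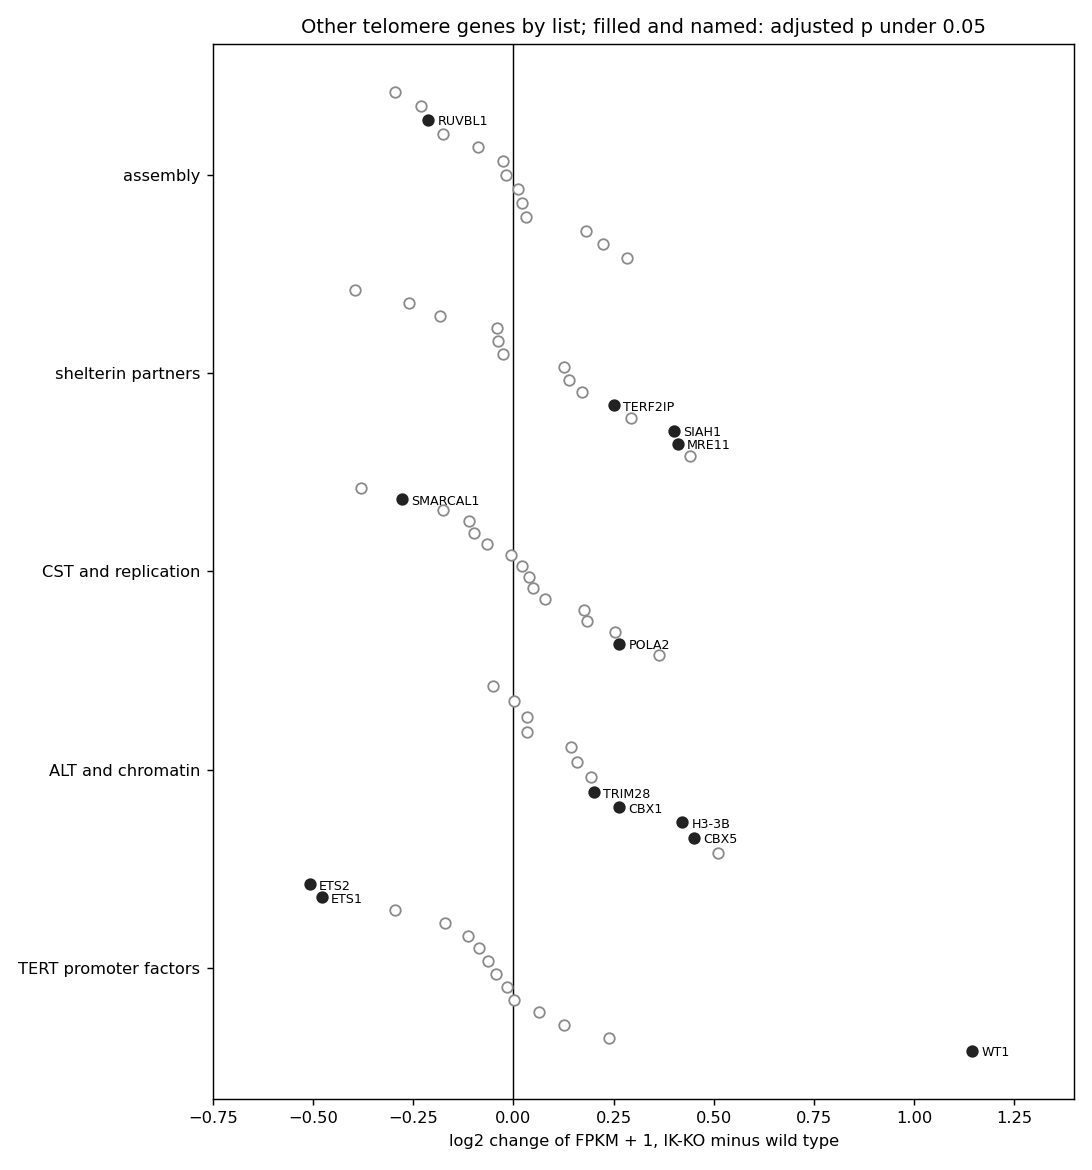
Log2 change of FPKM + 1 (horizontal axis, IK-KO minus wild type) of the 69 tested genes in 5 lists (vertical axis); each circle is a gene, filled and named at an adjusted p under 0.05. The 13 filled circles lie on both sides of 0, with the WT1 gene at 1.15 farthest out.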

How the data were processed

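Gene-level FPKM of 6 polyA RNA-seq libraries (3 wild type, 3 IK-KO) were used. Per the labels, the submitters' processing notes name build hg38, STAR 2.6.1c, Cufflinks 2.2.1 and HOMER 4.10. The authors scaled the deposited FPKM for transcript length and depth, and deposited lower and upper confidence bounds with them. The annotation and strand setting are not given in the sources used here. All 49727 single-row identifiers whose version is in GENCODE 44 lie at its GRCh38 positions.

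Rows of 1 identifier were summed, and 29 identifiers with a failed estimate in a library were left out. No counts were recovered, so no count model was used. Values were transformed to log2(FPKM + 1), and genes whose mean over the 6 libraries reached an FPKM of 1 (12652) entered limma 3.58.1 under R 4.3.3, by lmFit and eBayes with a trend of variance on level. P-values were two-sided, were adjusted over all these genes by Benjamini and Hochberg's method, and made a call when under 0.05 after adjustment. The 14 alternatives changed the pseudocount, filter, scaling, variance trend, replicate block, neighbours or failed estimates, or left out 1 library. The study's RNA-seq methods describe read counts on the mouse genome, merged technical replicates and a Welch comparison, which do not describe these human FPKM tables. The fit was tested on simulated data. Promoter windows came from RefSeq on GRCh38.p14. The fragments behind a listed value were estimated as (2 FPKM / (upper bound − FPKM)) squared. Depth was the median of that count per FPKM and per kilobase of transcript. The median ran over single-transcript genes above 1 FPKM and longer than 1 kilobase. Ratios were compared with exact permutation tests (scipy 1.17.1).

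The rule for named genes took all 10 members, TERF2IP, the called gene with the largest change in each list and the 3 genes most similar to TERT. Other genes, among them the neighbours of TERT and further list and marker genes, were named after their values were seen. The members and lists were chosen with earlier results of these data known, and support nothing by themselves.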

Additional observations from a re-analysis of the deposited data

How the results depend on the processing

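Under 14 alternatives, 131 of 140 member values kept their direction and side of the threshold. For the 9 members not called in the main fit, staying uncalled counts as kept. TERT was not called without the filter on low values (log2 change −1.47, limma adjusted p 0.0743), which left 0 members called, with more genes then tested. It also lost its call without IK-KO replicate 1, 2 or 3 in turn (limma adjusted p 0.0606, 0.0609 and 0.0595). Leaving out 1 library at a time gave between 0 and 2 called members, with changes from −1.69 to −1.09 for TERT, 0.18 to 0.30 for TINF2, −0.044 to 0.027 for NHP2 and −0.034 to 0.16 for TERF2. The last pair crossed 0 without being called: NHP2 was at 0.027 without wild type replicate 2 and at 0.025 without IK-KO replicate 1, and TERF2 at −0.034 without wild type replicate 1 and at −0.0050 without IK-KO replicate 3. Called genes numbered between 1692 and 2004 with 1 library left out, and between 1805 and 2801 in the other alternatives, against 2515.

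Replicate numbers gave no pairing. The deviations from the group means correlated, for libraries of one number, at 0.067, 0.025 and 0.005 across genes, and those of replicate 3 more with another number (0.060). With the replicate block, 1805 genes were called, TERT among them (log2 change −1.47, adjusted p 0.0398), and no call of a member changed.

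Depth limits TERT: in the libraries labelled IK-KO it lay at or under the level that 3 fragments of its canonical transcript give. That floor covers counting error only, whereas the 95% intervals of log2 changes rest on the spread among libraries. By the deposited bounds wild type was uncertain too: replicates 1 and 3 had the width of 3.94 and 3.28 fragments, with lower bounds of 0. Their listed values would need 91.1 and 70.2 fragments of the canonical transcript, so the width is not a count of fragments. Bounds also widen where fragments must be divided among transcripts.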
